A study of Mus musculus with 2 samples.

Results

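The extracellular matrix of the embryonic heart was examined through 42 genes for noncollagen matrix proteins, proteoglycans and the enzymes that crosslink or sulfate them. The genes were listed by symbol and matched to identifiers in the GENCODE M21 annotation; all 42 were found among the 43346 mouse gene rows, of which 21461 were nuclear protein-coding genes. The tissue was heart of B6NCrl mouse embryos at embryonic day 12.5, pooled from males and females, with no treatment or allele named, so there was a single group and no contrast between conditions. Its 2 libraries, each prepared from 10 ng of RNA over 200 nt to which ERCC spike-ins were added, are labelled biological replicates 1 and 2 and carry separate tissue entries under the same donor entry; nothing read here says that they came from separate litters, and their spread may be partly technical. The series' title calls the deposit superseded by a later one, which was not analysed here.

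The matrix of the heart at this stage fills the cushions that become valves and the space between epicardium and muscle. Hyaluronan, bound by the proteoglycan versican and stabilised by link protein, swells the cardiac jelly, while fibronectin, periostin and fibulins line the paths of migrating cells. Elastin, laid on fibrillin microfibrils and crosslinked by lysyl oxidases, builds the elastic walls of the outflow vessels, and nidogens, perlecan and agrin are parts of basement membranes.

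Replicate 1 held 33480066 and replicate 2 held 30665239 estimated reads on mouse genes. Levels are given in TPM, a share of all transcripts after scaling by length. The upper limit for a gene without reads, set at 3 reads, was 0.0373 and 0.0416 TPM at the members' median length and covers counting error only. All 8 heart muscle markers were detected, from Ryr2 at 14.9 and 16.5 TPM to Actc1 at 9860 and 9751 TPM, as were all 8 cushion mesenchyme, 7 endothelial and 7 epicardial markers. Of 6 smooth muscle markers 5 were detected, of 6 macrophage markers 5, and of 6 lung and foregut markers 1. Of 10 liver markers 6 were detected, and their sum was 184 TPM in replicate 1 and 39.4 TPM in replicate 2. The sum of 6 platelet markers was 107 and 135 TPM. That of 7 red cell markers was 44825 and 40248 TPM, above the heart muscle markers at 29295 and 29390 TPM. In whole tissue, fewer cells of a type and less RNA per cell cannot be told apart.

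Of the 42 genes, 41 reached 1 TPM in both libraries, the level called detected here, against 57.5% of nuclear protein-coding genes. The exception was Acan. The median member stood at 58.7 TPM, against 3.64 TPM over all nuclear protein-coding genes and 18.9 TPM over the 12344 detected ones, and 33 members lay above the latter value. Together the members made up 0.405 ± 0.000245% of all TPM (SD, n = 2) and 0.918 ± 0.0147% of the reads on genes. The levels ran over a range of 2488-fold, with 10 members at 100 TPM or more, 12 from 50 to 100 TPM, 14 from 10 to 50 TPM and 6 lower. Sparc alone held 29.2% of the members' TPM, and the 3 highest members, Sparc, Fn1 and Mfap2, held 42.8%. In the order of levels, 14 of 41 neighbouring pairs had intervals apart in both libraries; the interval is the range the authors' files give for each TPM, whose confidence level the headers do not name.

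**Figure D1:**
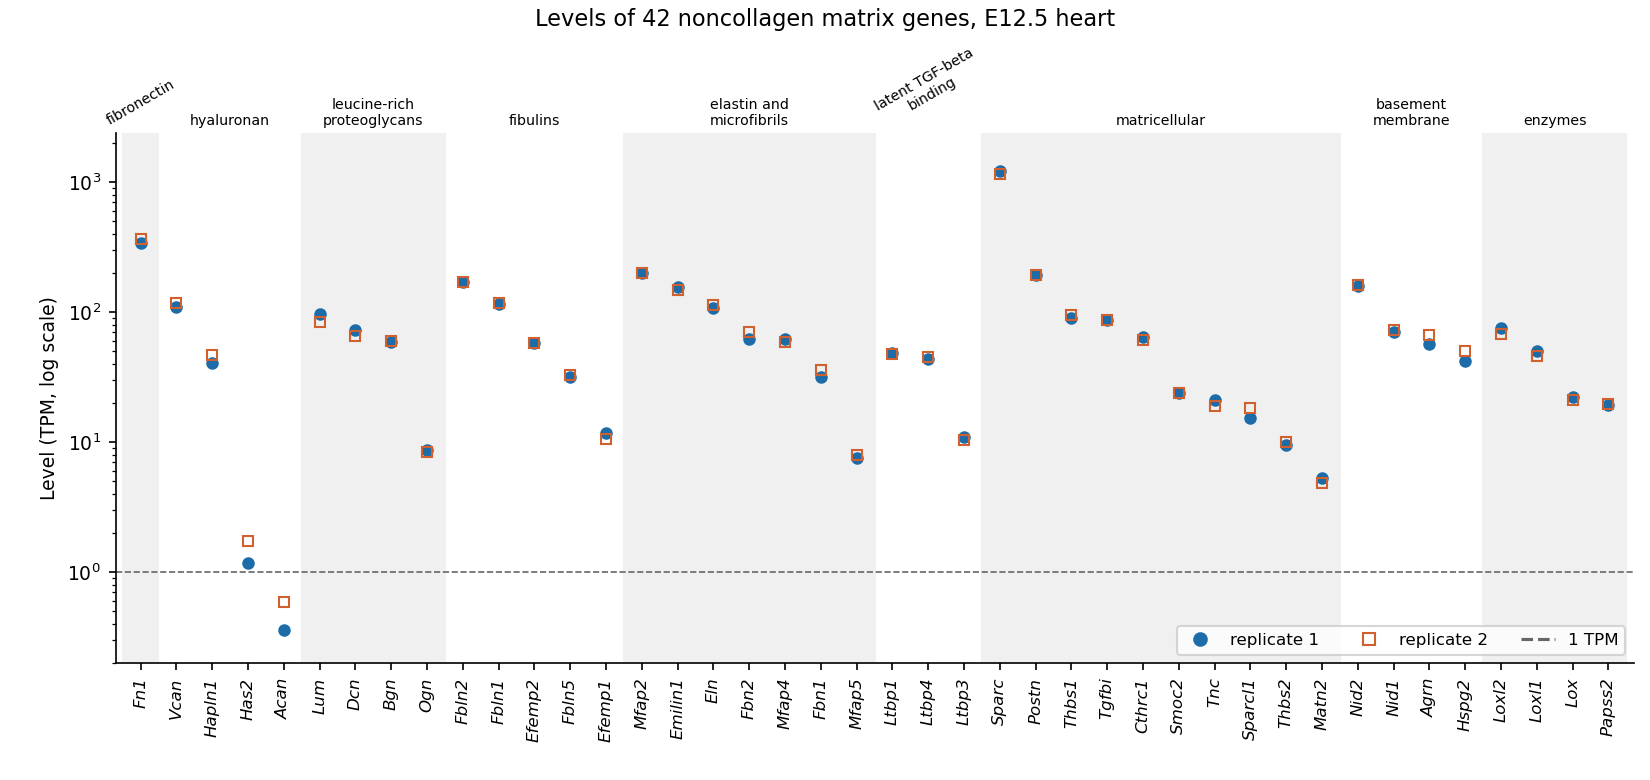
Level of each of the 42 genes in TPM on a log scale, grouped by role and ordered by mean within a role, with filled circles for replicate 1, open squares for replicate 2 and a dashed line at 1 TPM. Sparc lies highest at 1205 and 1159 TPM, Acan is the only gene below the line in both libraries, and Has2 shows the widest gap between libraries among the detected genes.

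Fibronectin, Fn1 (ENSMUSG00000026193.11, chr1:71585520-71653200, GRCm38, minus strand), a glycoprotein that cells bind through integrins, was the second highest member. It stood at 339.6 TPM in replicate 1 and 364 TPM in replicate 2. Its mean of 352 ± 17 TPM (SD, n = 2) was 1.82 ± 0.0752-fold that of Postn, and the 2 genes' intervals did not overlap in either library. Fn1 carries 2 alternative exons, each coding a fibronectin type III repeat, whose inclusion marks cellular rather than plasma fibronectin. They are shown because the forms of Fn1 differ by them: exon 25 of the 46 in Fn1-201 is the extra domain B exon (chr1:71613763-71614035, 273 bases) and exon 33 the extra domain A exon (chr1:71603660-71603929, 270 bases). The exon is in capitals and 12 bases of each neighbouring exon are in lower case, from the GENCODE M21 transcripts of GRCm38, 5′ to 3′.
Fn1 exon 25: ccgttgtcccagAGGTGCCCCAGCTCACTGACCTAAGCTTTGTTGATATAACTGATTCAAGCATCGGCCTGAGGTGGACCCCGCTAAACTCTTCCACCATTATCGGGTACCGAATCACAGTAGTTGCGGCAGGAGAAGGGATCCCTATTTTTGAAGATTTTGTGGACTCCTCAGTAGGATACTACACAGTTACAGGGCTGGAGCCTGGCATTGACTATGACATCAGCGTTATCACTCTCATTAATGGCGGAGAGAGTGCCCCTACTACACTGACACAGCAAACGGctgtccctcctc
Fn1 exon 33: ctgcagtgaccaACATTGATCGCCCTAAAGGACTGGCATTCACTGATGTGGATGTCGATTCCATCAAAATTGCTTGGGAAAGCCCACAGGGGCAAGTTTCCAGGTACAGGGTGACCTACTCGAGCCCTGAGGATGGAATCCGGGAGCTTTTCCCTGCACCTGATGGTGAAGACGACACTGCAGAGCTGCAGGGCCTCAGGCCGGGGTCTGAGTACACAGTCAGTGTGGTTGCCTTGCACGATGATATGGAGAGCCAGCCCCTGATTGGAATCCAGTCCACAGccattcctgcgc

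Most full-length Fn1 RNA was assigned to the form with both exons. Over all transcripts that hold or skip it, exon 25 was included at 72.5% and 72.1% of TPM in replicates 1 and 2. Over coding transcripts alone its inclusion was 78.9% and 79.7%. Exon 33 was included at 72.9% and 71.3% over all transcripts and at 98.4% and 96.8% over coding ones, so its value depended on which transcripts were counted. The transcript behind that gap is Fn1-202, a 4022-base retained-intron model that lacks exon 33 and took 22.4 ± 0.106% of the gene's TPM. Fn1-201, with both exons, held 172 and 181 TPM, or 79.3 ± 0.526% of the coding forms. Coding forms with exon 33 and without exon 25 were led by Fn1-214 at 11.2 ± 2.18%, and Fn1-203, the main form with neither exon, held 1.69 ± 0.0617%. These shares, like all transcript values here, are the quantifier's division of reads among annotated models; counts of reads across junctions were not used.

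Versican was abundant while the hyaluronan synthase was near the level of detection. Has2, the synthase that makes most hyaluronan in the early heart, was low, at 1.17 TPM (114 reads) in replicate 1 and 1.75 TPM (155 reads) in replicate 2. Its intervals, 0.946 to 1.36 and 1.45 to 1.99 TPM, did not meet. Vcan, the large hyaluronan-binding proteoglycan versican (ENSMUSG00000021614.12, chr13:89655312-89742509), stood at 109 and 118 TPM. Hapln1, the link protein that joins versican to hyaluronan, had 40.4 and 46.9 TPM. Vcan was 2.61 ± 0.138-fold above Hapln1 and 80.2 ± 18.4-fold above Has2, in the same order in both libraries. These folds depend on the forms counted: over near-full-length coding transcripts, those with at least 50% of the gene's longest coding sequence, they were 1.56-fold and 47.7-fold. Acan, the cartilage proteoglycan aggrecan, had 0.36 TPM (61 reads) and 0.59 TPM (91 reads), well above the floor of 3 reads but under the level called detected, and Vcan stood 251 ± 73.3-fold above it, or 149-fold over near-full-length coding transcripts and 77.7-fold with a pseudocount of 1 TPM. Of 6 cartilage markers, 3 were detected, with Col2a1 at 65.0 and 63.9 TPM and Snorc listed at 0 in both libraries; the part of cartilage cells in the level of Acan was not tested.

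Versican forms differ by 2 large exons that carry the chondroitin sulfate attachment regions, exon 7 (chr13:89702918-89705797, 2880 bases, GAG-alpha) and exon 8 (chr13:89688285-89693501, 5217 bases, GAG-beta), both on the minus strand. The form V0 holds both, V1 only exon 8, V2 only exon 7 and V3 neither. The joins below are what sets the forms apart, with 15 bases on each side and the downstream exon in capitals. V0 reads through exons 6, 7, 8 and 9, V1 joins exon 6 to 8, and V3 joins exon 6 to 9.
Vcan exon 6 to 7: cctactgctttaaacCTAAACAGAATATAT
Vcan exon 7 to 8: gagaaaacaagacagGTCGATTGAGTGATA
Vcan exon 8 to 9: cagtttacctaccagGACCTGATCTCTGCA
Vcan exon 6 to 8: cctactgctttaaacGTCGATTGAGTGATA
Vcan exon 6 to 9: cctactgctttaaacGACCTGATCTCTGCA

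V0 led in both libraries. Its transcript Vcan-203 had 43.3 and 48.0 TPM, which was 39.7% and 40.8% of the gene's TPM and, being long, 67.9% and 66.9% of its reads. V3, Vcan-201, had 29.6 and 26.1 TPM on 8.37% and 6.56% of the reads. V1, Vcan-206, had 19.7 and 24.9 TPM on 20.6% and 23.1% of them. V2, Vcan-202, a form known from brain, had 0.45 and 0.62 TPM. In TPM, V3 thus exceeded V1 in either library, by a narrower margin in replicate 2. The 2 models also differ outside the coding sequence, which is 1965 of 2321 bases in V3 and 7182 of 8332 in V1. This order therefore rests on the model lengths as well. Summed over forms, exon 8 was included at 67.7% and 73.2% of TPM and exon 7 at 47.0% and 48.8%. Neither V1 nor V3 has an alternative exon of its own; in coding sequence they are set apart by the joins of exon 6 to 8 and of exon 6 to 9, and counts of reads over these joins were not used.

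The small leucine-rich proteoglycans, which bind and space collagen fibrils, were led by lumican, with osteoglycin far below. Lum had 96.3 and 84.5 TPM and decorin, Dcn, had 72.7 and 65.6 TPM. Both were higher in replicate 1, and the intervals of the 2 libraries were apart for each. Biglycan, Bgn, had 59.4 and 59.8 TPM, and osteoglycin, Ogn, had 8.69 and 8.38 TPM. Lum was 10.6 ± 0.706-fold above Ogn, and Bgn was 0.662 ± 0.0646 times Lum. Bgn and Dcn, at a ratio of 0.864 ± 0.0670, had overlapping intervals in at least 1 library. Their order turned (1.17-fold) when reads were divided by the length of 1 model with the longest coding sequence. That model need not be the one with most reads, so the turn may rest on the model chosen. Of 10 other genes of this family 3 were detected, with Fmod, fibromodulin, at 12.8 and 14.2 TPM, Aspn at 2.98 and 1.98 TPM and Prelp at 2.16 and 2.05 TPM, followed by Epyc at 0.65 and 0.35 TPM.

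The 5 fibulins among the members, proteins that bridge elastic fibres, basement membranes and versican, were all detected. Fbln2 had 169.6 and 171 TPM and Fbln1 had 116 and 118 TPM. By these totals Fbln1 was 0.687 ± 0.00176 times Fbln2, but the order turned, to 1.12-fold, over near-full-length coding transcripts. Fbln2-206, a 1612-base retained-intron model, took 36.7 ± 0.445% of the TPM of Fbln2 on 16.3% and 16.8% of its reads. Which of the 2 fibulins is higher therefore depends on how such models are counted. Of Fbln1, the coding form of 685 codons, Fbln1-202, held 90.7 ± 0.198% and that of 705 codons, Fbln1-201, the remaining 9.25 ± 0.198%. Efemp2 (fibulin-4), needed for elastin crosslinking, had 57.9 and 57.8 TPM, Fbln5, which carries elastin to microfibrils, 31.8 and 32.5 TPM, and Efemp1 (fibulin-3) 11.8 and 10.6 TPM. Efemp2 was 5.19 ± 0.416-fold above Efemp1, and Fbln1 was 3.64 ± 0.0224-fold above Fbln5. The latter was 2.33-fold when reads were divided by the length of the model with the longest coding sequence. For Fbln1 that model is Fbln1-201 (3659 bases), which held only 14.5% and 14.1% of the gene's reads.

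Among the parts of elastic fibres, the microfibril-associated glycoprotein Mfap2 was highest, at 201 and 199 TPM. Its relative Mfap5 was near the bottom at 7.55 and 7.90 TPM, so Mfap2 stood 25.9 ± 0.994-fold higher. Mfap4, a fibrinogen-related partner of elastin, had 62.0 and 58.8 TPM, 3.32 ± 0.101-fold below Mfap2. By reads per kilobase of the model with the longest coding sequence, the gap was 2.18-fold. For Mfap4 that model is Mfap4-201 (939 bases), which held only 6.26% and 3.77% of the gene's reads. Emilin1, which sits at the boundary of elastin and microfibrils, had 155 and 148 TPM. Elastin itself, Eln, had 108 and 113 TPM. Of the fibrillins, whose polymers form the microfibril, Fbn2 exceeded Fbn1 in both libraries. Fbn2 had 61.7 and 69.7 TPM and Fbn1 had 31.6 and 35.8 TPM, a ratio of 0.513 ± 0.00104 for Fbn1 over Fbn2 that hardly moved although both genes were higher in replicate 2. Fbn1 was 0.305 ± 0.0183 times Eln. The list of 14 other elastic fibre genes had 10 detected and a median of 7.47 TPM, and Emilin2 alone, at 79.7 and 78.2 TPM, lay above the median member. Next came Adamts10 at 32.1 and 32.7 TPM, Mmrn2 at 25.3 and 26.3 TPM and Mfap3 at 26.7 and 24.8 TPM.

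The latent TGF-beta binding proteins hold latent TGF-beta in the matrix and attach it to fibrillin. Ltbp1 had 48.2 and 48.0 TPM and Ltbp4 had 43.7 and 45.4 TPM. Their ratio was 1.08 ± 0.0327, with intervals that overlapped in at least 1 library, so no order was called. Ltbp3 was lower, at 11 and 10.3 TPM, and Ltbp1 stood 4.51 ± 0.196-fold and Ltbp4 4.18 ± 0.308-fold above it. The 1712-codon form Ltbp1-201 held 77.3 ± 0.770% of the coding forms of Ltbp1 and the 1341-codon form Ltbp1-202 held 21.9 ± 0.0476%.

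Matricellular proteins, which tune how cells attach to and signal through the matrix, made up 41.8% of the members' TPM. Sparc (ENSMUSG00000018593.8, chr11:55394500-55423183), a collagen- and calcium-binding glycoprotein, was the highest member, at 1205 and 1159 TPM, 3.55-fold and 3.19-fold above Fn1, the next. Its relatives were much lower: Sparcl1 had 15.2 and 18.2 TPM and Smoc2 had 23.8 and 24 TPM. Sparc was 71.5 ± 11-fold above Sparcl1 and 49.5 ± 1.72-fold above Smoc2, and 40.9-fold and 28.4-fold over near-full-length coding transcripts. A large part of the TPM of Sparc lay in Sparc-205, a 741-base retained-intron model that took 43.6% and 41.4% of TPM on 20.8% and 18.7% of reads. Over near-full-length coding transcripts, which leave it out but keep the 640-base coding model Sparc-206, Sparc had 678 TPM on average and was again the highest member. The 2 full-length coding forms differ in coding sequence by a single codon at the start of exon 3, shown with the extra bases in capitals.
Sparc longer: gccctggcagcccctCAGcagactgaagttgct
Sparc shorter: gccctggcagcccctcagactgaagttgct

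The longer form, Sparc-201, had 335 and 348 TPM and the shorter, Sparc-202, had 243 and 265 TPM, in the same order in both libraries. The 2 models also differ in total length, 2300 and 2115 bases, so the split does not rest on that codon alone. Periostin, Postn (ENSMUSG00000027750.12, chr3:54361109-54391037), a fasciclin-domain protein of cushion mesenchyme and maturing valves, had 193 and 194 TPM. It stood 2.22 ± 0.0190-fold above its paralog Tgfbi, at 87.2 and 87.0 TPM, and 9.70 ± 0.705-fold above tenascin-C, Tnc, at 20.9 and 19.1 TPM. Thrombospondin 1, Thbs1, had 90.1 and 95.5 TPM and Thbs2 had 9.42 and 9.95 TPM, a ratio of 9.58 ± 0.0207. Cthrc1, a secreted collagen triple helix repeat protein, had 63.9 and 60.9 TPM, and the filament-forming matrilin Matn2 had 5.32 and 4.83 TPM.

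Periostin and tenascin-C also come in alternative forms. The forms of Postn differ in the carboxyl-terminal region by whole exons, of which exons 17 (chr3:54380412-54380492, 81 bases, plus strand) and 21 (chr3:54385671-54385754, 84 bases) set its 4 full-length models apart. The alternative exon found among the listed models of Tnc is exon 14 (chr4:63984460-63984732, minus strand). With 273 bases it has the same length as exon 25 of Fn1, and it codes a fibronectin type III repeat. All are in capitals, with 12 bases of each neighbouring exon.
Postn exon 17: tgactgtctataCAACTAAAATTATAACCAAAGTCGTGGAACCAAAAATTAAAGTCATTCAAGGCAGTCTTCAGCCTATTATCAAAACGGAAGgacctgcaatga
Postn exon 21: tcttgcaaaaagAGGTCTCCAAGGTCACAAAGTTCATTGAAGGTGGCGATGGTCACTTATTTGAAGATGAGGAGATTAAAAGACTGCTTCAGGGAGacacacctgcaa
Tnc exon 14: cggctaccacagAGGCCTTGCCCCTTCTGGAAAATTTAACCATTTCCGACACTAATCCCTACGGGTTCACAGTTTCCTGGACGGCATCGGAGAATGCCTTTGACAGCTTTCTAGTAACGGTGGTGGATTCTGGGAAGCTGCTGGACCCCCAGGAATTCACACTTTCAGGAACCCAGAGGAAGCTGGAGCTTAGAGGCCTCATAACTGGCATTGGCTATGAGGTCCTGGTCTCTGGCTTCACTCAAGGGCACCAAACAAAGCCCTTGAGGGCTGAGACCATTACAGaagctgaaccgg

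Full-length Postn RNA was spread over 3 forms. Postn-203, with exon 17 and without exon 21, had 82.2 and 87.6 TPM and Postn-201, with the opposite choice, had 52.3 and 59.3 TPM. Postn-204, with neither, had 29.3 and 19.6 TPM, and Postn-202, with both, was listed at 0 in both libraries. The order of the 4 forms was the same in the 2 libraries. Exon 17 was included at 44.6% and 47.5% of TPM and exon 21 at 27.9% and 31.6%. These values also count shorter models, mainly Postn-206, a 655-base coding model that skips both, at 20.4 and 17.8 TPM. Among the full-length models alone, the form with only exon 17 held 50.2% and 52.6%. The form with only exon 21 held 31.9% and 35.6%. For Tnc the inclusion of exon 14 was 47.4% and 50.5%, and the leading form was not the same: Tnc-204, without the exon, led with 52.4% of TPM in replicate 1, and Tnc-203, with it, led with 50.5% in replicate 2.

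**Figure D2:**
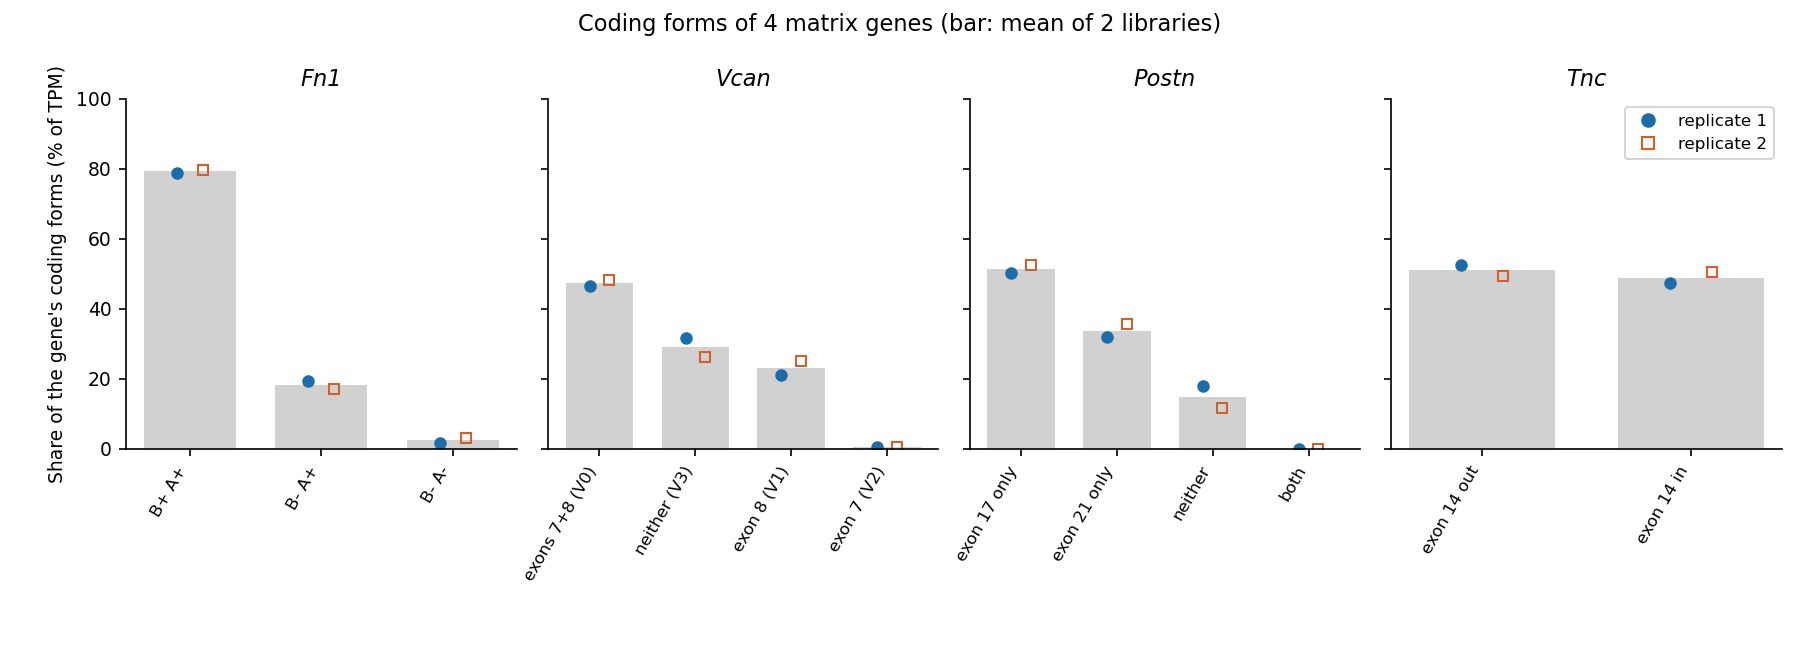
Share of each kind of coding form, in percent of the TPM of the gene's coding forms, for Fn1, Vcan, Postn and Tnc, with bars for the mean of the 2 libraries, filled circles for replicate 1 and open squares for replicate 2; B and A stand for exons 25 and 33 of Fn1, and forms with the same exons are summed. Partial coding models, such as Postn-206 and Vcan-205, are left out of the shares. The form with both exons holds 79.3% in Fn1, the leading form of Vcan holds 47.4%, and the 2 kinds of Tnc form change places between the libraries.

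Over all members, the choice of leading transcript was steady between libraries. Of the 22 members at 10 TPM or more with several transcripts at 1% or more, 21 had the same leader in both, Tnc being the exception, which was close to the 94% of all such genes. A further 17 of the 42 members have only 1 listed transcript. Of 53 alternative exons with a value, in 10 members, 35 were included at 95% or more and 4 at 5% or less. The other 14, in Fn1, Vcan, Postn, Tnc, Agrn, Mfap5 and Efemp1, were in between. Some of these values rest on short or noncoding models. Over coding transcripts, exons 30 and 34 of Agrn were each included at 7.06% on average and exon 33 of Fn1 at 97.6%. Exon 20 of Postn is skipped only by the 655-base Postn-206. Many of the 35 are skipped only by models listed at 0 TPM, such as Agrn-201. No such share was computed over all genes.

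Of the basement membrane members, nidogen-2 was the highest. Nid2 had 159 and 160.5 TPM and Nid1 had 70.5 and 73.4 TPM, so that Nid1, which links laminin to collagen IV as its paralog does, was 0.450 ± 0.0105 times Nid2. Agrin, Agrn (chr4:156165290-156197488, minus strand), a heparan sulfate proteoglycan that binds dystroglycan, had 56.7 and 66.1 TPM. Perlecan, Hspg2, another heparan sulfate proteoglycan, had 42.2 and 49.8 TPM. All 4 genes were higher in replicate 2, and the intervals were apart for Agrn and Hspg2. Agrn exceeded Hspg2 by gene totals (ratio of Hspg2 to Agrn 0.749 ± 0.00667), but over near-full-length coding transcripts Hspg2 was 1.26-fold the higher. Agrn-205, a 2071-base retained-intron model, took 52.7% and 51.7% of the TPM of Agrn on 25% and 24.9% of its reads, and Hspg2-202, an 820-base model, took 28.6% and 31.0% of the TPM of Hspg2 on 2.01% and 2.24%.

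Known forms of agrin differ by 3 short exons: exon 30 (chr4:156169546-156169557, 12 bases), the insert at the y site, and exons 34 (chr4:156168546-156168569, 24 bases) and 35 (chr4:156167777-156167809, 33 bases) at the z site. Inserts at z are known from neurons, where they give agrin its power to cluster acetylcholine receptors. The inserts are in capitals with 12 bases of each neighbouring exon.
Agrn exon 30: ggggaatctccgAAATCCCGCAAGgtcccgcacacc
Agrn exon 34: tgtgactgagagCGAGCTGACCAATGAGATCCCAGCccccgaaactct
Agrn exon 35: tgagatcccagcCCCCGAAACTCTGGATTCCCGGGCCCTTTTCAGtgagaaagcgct

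The coding RNA of Agrn was mostly without inserts. Agrn-206, which lacks all 3 exons, had 21.6 and 24.9 TPM and held 90.7 ± 0.0796% of the coding forms. Agrn-203, which has all 3, had 2.23 and 1.31 TPM, or 9.35% and 4.78%. The 2 models also differ elsewhere, with 6102 coding bases in 36 exons against 5850 in 38, so the split does not rest on the inserts alone. Over all transcripts exon 34 was included at 59.8% and 57.6% of TPM, since Agrn-205 holds it; that value describes a noncoding model. Exon 35, which Agrn-205 lacks, was included at 4.15% and 2.13% over all transcripts, and exon 30, which the noncoding Agrn-207 also holds, at 14.8% and 10.4%.

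**Figure D3:**
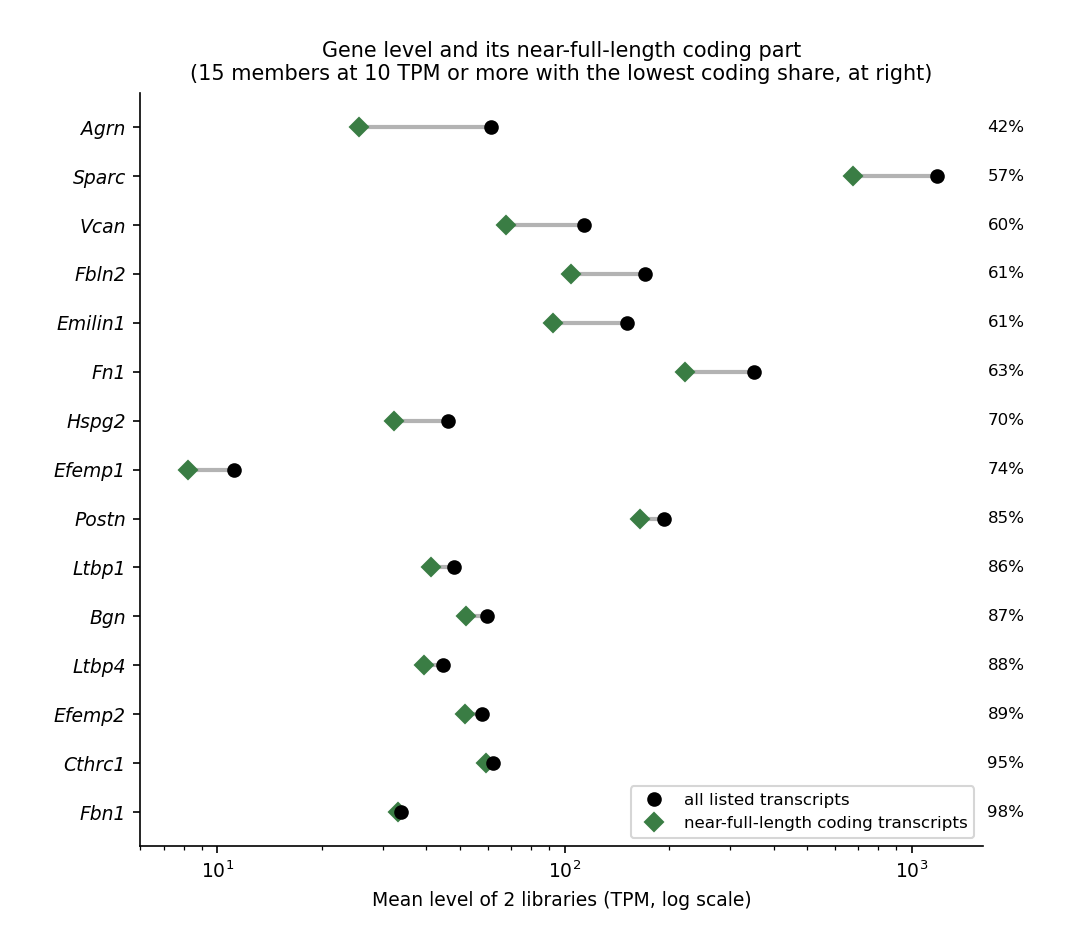
Mean level of 15 members over all listed transcripts (black circles) and over near-full-length coding transcripts (green diamonds), in TPM on a log scale, with the coding share in percent at the right; shown are the members at 10 TPM or more with the lowest share. The gap is widest for Agrn, and Sparc stays the highest gene on either measure.

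Short or noncoding models thus weigh on several totals. Of 36 members at 10 TPM or more, 8 had under 75% of their TPM in near-full-length coding transcripts (Fn1, Vcan, Fbln2, Efemp1, Sparc, Hspg2, Agrn and Emilin1), near the 26% of all protein-coding genes at that level. For Vcan the low share comes mainly from V3, whose coding sequence is under 50% of the longest, and partly from short models such as Vcan-205. For Emilin1 it comes mainly from a 601-base transcript that GENCODE M21 no longer lists, which held 35.7 ± 0.0566% of TPM on 7.07% and 7.03% of reads.

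The enzymes of the list act on the other members. Loxl2 had 75 and 67.5 TPM, Loxl1 had 50.5 and 46.2 TPM and Lox had 22.2 and 20.9 TPM; all are amine oxidases that crosslink elastin or collagen. Loxl2 was 3.31 ± 0.110-fold and Loxl1 2.25 ± 0.0454-fold above Lox. All 3 were higher in replicate 1, with intervals apart for Loxl1 and Loxl2. Papss2, which makes the sulfate donor for glycosaminoglycans, had 19.3 and 19.5 TPM, below its paralog Papss1 at 33.3 and 34.6 TPM.

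In all, 29 pairs of members were compared within each library, and 27 kept their order with intervals apart in both, against 89.6% of all pairs of detected nuclear protein-coding genes. The pairs without a call were Bgn with Dcn and Ltbp1 with Ltbp4. A call is therefore common for any pair at these depths, and the size of a ratio says more than the call.

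The 2 libraries gave nearly the same levels. Among 41 members with 100 reads or more on average, 0 were 1.5-fold higher and 0 were 1.5-fold lower in replicate 2, as were 0.351% and 0.445% of protein-coding genes. The median coefficient of variation was 3.77% for members and 3.73% for detected protein-coding genes. Intervals were apart between libraries for 10 members higher in replicate 2, against 4.73% of protein-coding genes, and for 6 members lower, against 2.39%. Members carry more reads than most genes (a median of 4246 against 1178); at 1000 reads or more, 9 and 6 of 36 members were apart, against 6.42% and 2.87% of genes. The higher ones were Fn1, Vcan, Hapln1, Has2, Fbn1, Fbn2, Sparcl1, Thbs1, Hspg2 and Agrn, and the lower ones Dcn, Lum, Sparc, Tnc, Loxl1 and Loxl2. On the log2 scale of TPM + 0.1 the differences ran from -0.19 for Lum to 0.54 for Has2.

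These differences went with transcript length. Length here is the deposited value per gene, averaged over the libraries, and need not be that of a coding model. Sparc was placed at 1480 bases, while Sparc-201 has 2300, and Agrn at 4224 bases, while Agrn-206 has 6891. Of 7 members of 6000 bases or more (Fn1, Vcan, Fbn1, Fbn2, Tnc, Nid1 and Hspg2), 6 were higher in replicate 2, with a median log2 difference of 0.11, and only Tnc was lower; of all protein-coding genes of that length 71.2% were higher. Of 8 members under 2000 bases (Dcn, Efemp1, Efemp2, Mfap2, Mfap4, Mfap5, Sparc and Cthrc1), 1 was higher, with a median of -0.064, against 51.3% of all protein-coding genes of that length. Protein-coding genes of the same lengths had medians of 0.066 and 0.0032. As a description, across the 41 members Spearman's rho of the difference with length was 0.48, and across 11696 protein-coding genes it was 0.15; genes of a library share its reads and are not replicates. The summed liver markers were 0.215-fold and the platelet markers 1.26-fold in replicate 2 relative to replicate 1. The lung and foregut markers were 1.65-fold, at sums of only 3.68 and 6.09 TPM. The red cell markers were 0.898-fold, the macrophage markers 0.920-fold and the cushion markers 1.04-fold. Endothelial markers were 1.05-fold and smooth muscle markers 1.04-fold. Heart muscle, epicardial and cartilage markers were 1.00-fold, 0.984-fold and 0.986-fold. The part of length or of these cell types in the members' differences was not tested.

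**Figure D4:**
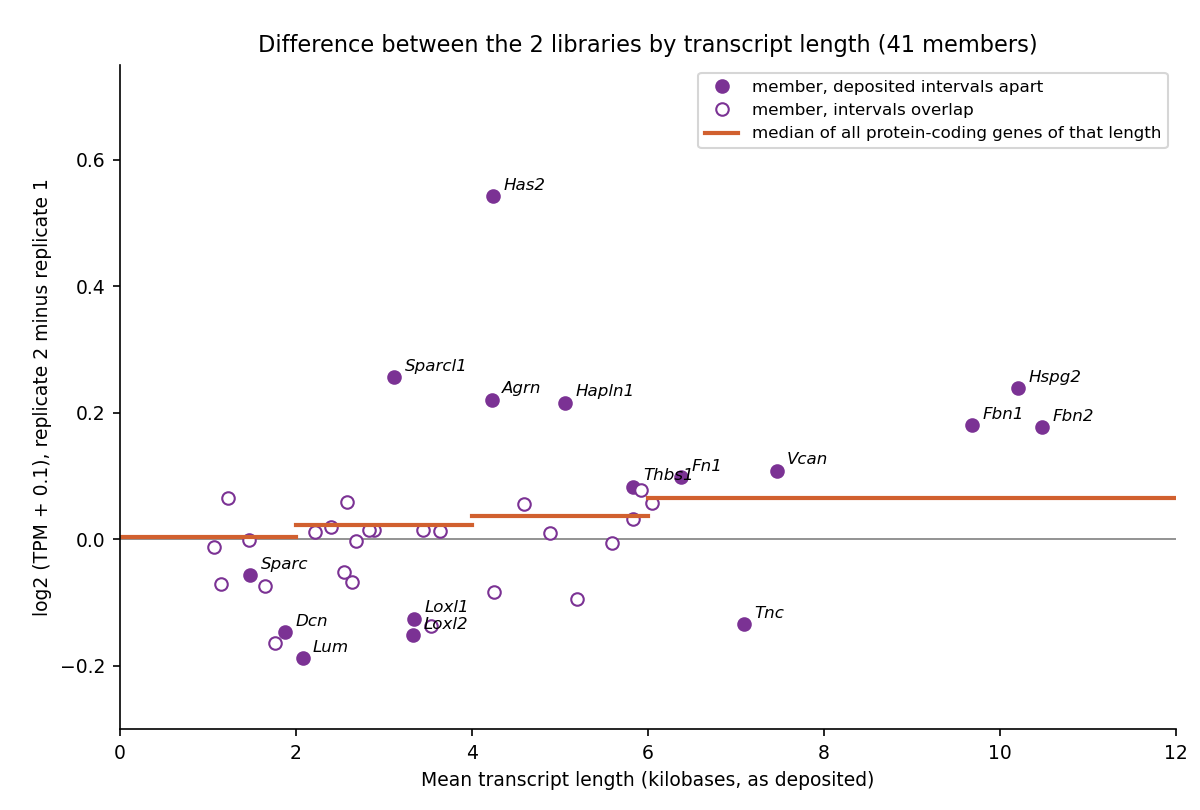
Difference between the libraries (log2 of TPM + 0.1, replicate 2 minus replicate 1) against mean transcript length in kilobases for the 41 members with 100 reads or more; filled circles are members whose intervals are apart, open circles the others, and orange lines the median of protein-coding genes in 4 length classes. Long members lie mostly above 0 and short ones mostly below, with Has2 highest at 0.54 and Lum lowest at -0.19.

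The genes around the members were taken as 8 lists of 131 genes, of which 95 were detected and 12 lay above the median member. Among 15 genes of hyaluronan metabolism and its receptors, 10 were detected, and the median was 4.57 TPM. The enzymes that make its sugar precursors were high, with Ugp2 at 174 and 179 TPM and Ugdh at 78.7 and 81.6 TPM. So were the degrading enzymes Cemip2 (90.2 and 93.3 TPM) and Hyal2 (86.7 and 84 TPM). Their relatives were low: Hyal1 had 4.53 and 4.61 TPM, Cemip 0.86 and 0.91 TPM and Hyal3 0.52 and 0.40 TPM. The other synthases, Has1 at 0.30 and 0.33 TPM and Has3 at 0.09 and 0.11 TPM, lay below Has2. Of 5 other aggregating proteoglycans and link proteins only Hapln3 was detected, at 1.59 and 1.05 TPM.

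The list of 28 other matricellular genes had 19 detected and a median level of 2.26 TPM. Fstl1, a secreted follistatin-like protein related to Sparc, had 463 and 462 TPM, above every member but Sparc. Spon1 had 82.7 and 81.8 TPM, Ccn1 76.3 and 81.5 TPM and Spon2 50.8 and 49.1 TPM. The sulfation and sugar chain enzymes were broadly present at moderate levels: 24 of 27 genes for the linker and for chondroitin or dermatan sulfate were detected, their median was 11.8 TPM, and none lay above the median member. They were led by Slc35b2, which carries the sulfate donor into the Golgi, at 48.2 and 48.4 TPM, and B3gat3, which completes the linker, at 35.5 TPM in both libraries, followed by Impad1 at 34.7 and 36 TPM and Papss1 at 33.3 and 34.6 TPM. For heparan sulfate 16 of 19 were detected and the median was 11.3 TPM. The highest were the extracellular sulfatase Sulf2 at 126 and 125 TPM and the polymerase subunit Ext2 at 65.2 and 70.9 TPM, followed by Extl3 at 51.2 and 53.3 TPM and the sulfatase Sulf1 at 37.9 and 37.1 TPM. Of 13 cell surface proteoglycans and dystroglycan 12 were detected and the median was 32.9 TPM. The highest were glypican-3, Gpc3, at 489 TPM in both libraries and Dag1, the receptor of agrin and perlecan, at 154 and 162 TPM, followed by the glypicans Gpc1 at 57.5 and 54.6 TPM and Gpc4 at 46.5 and 48.1 TPM.

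**Figure D5:**
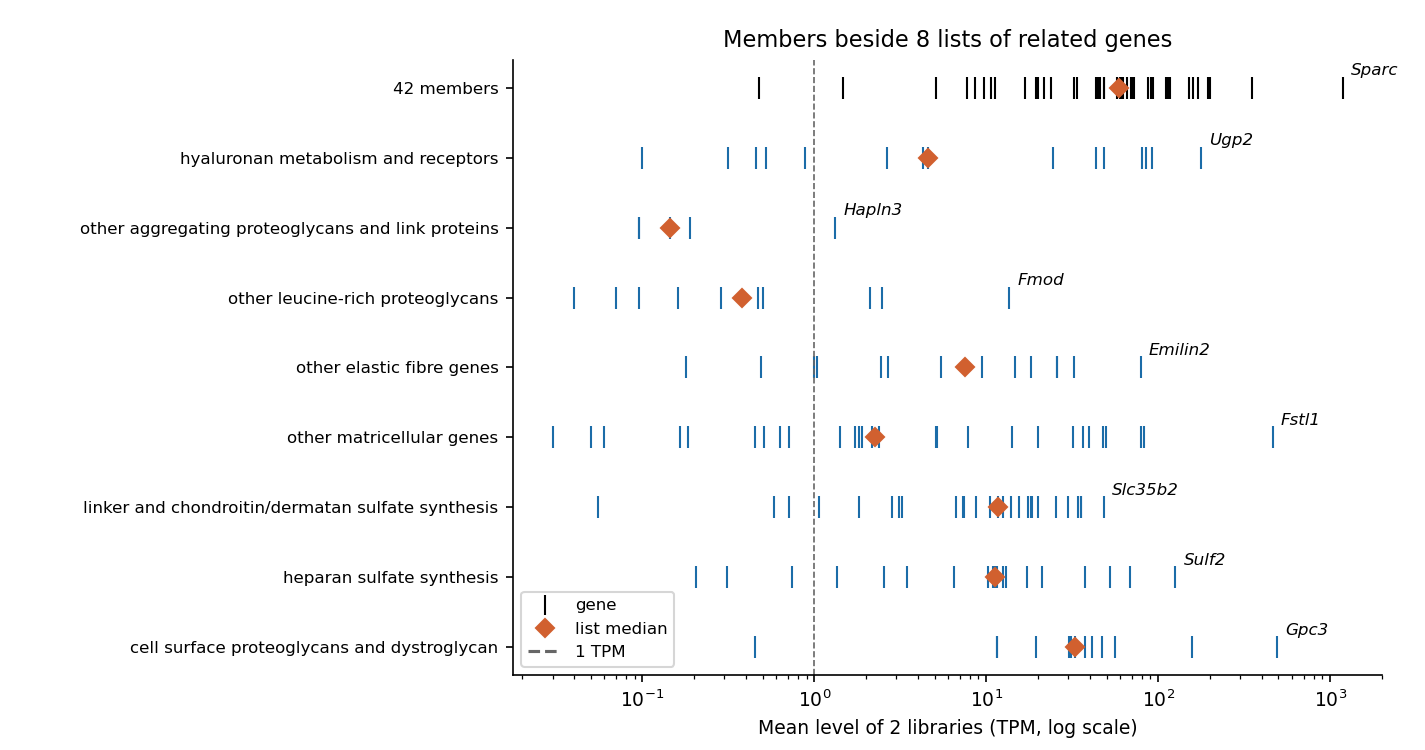
Mean level in TPM on a log scale of each member (black marks) and of each gene of the 8 related lists (blue marks), with list medians as diamonds, a dashed line at 1 TPM and the highest gene of each row named; genes at 0 would sit at the left edge. The median member lies above the median of each related list, and Gpc3 and Fstl1 exceed all members but Sparc.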

How the data were processed

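Total RNA from E12.5 heart was measured in 2 libraries, 1 group. Per the deposited notes, the files rest on alignments to mm10 (GRCm38) and the GENCODE M4 annotation. The aligner, quantifier and strand handling are not given in the sources read, so overlapping genes on opposite strands were not told apart. The authors' expected count is an estimated number of reads, the deposited TPM and FPKM are scaled by transcript length and library, and the deposited percent is a transcript's share of its gene's TPM. The deposited intervals cover counting and read allocation within a library; the TPM of 7 members lay outside its own interval, by at most 1.17% of the bound. Deposited effective lengths were 99 bases below full length.

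Names, coordinates and sequences came from GENCODE M21, and newer gene symbols of related genes from RefSeq synonyms. The members, roles, lists and pairs were chosen with earlier results of these data known. With 1 group no test between conditions was made and no p-value is given. Detection meant at least 1 TPM in each library. An order within a pair needed the same gene to be higher, with intervals apart, in each library; libraries were compared as log2 of TPM + 0.1 at 100 reads or more and 1.5-fold. Exon inclusion was the TPM of transcripts holding an exon over that of transcripts holding or skipping it. Named genes were all members and any related gene above the median member. Up to the 4 highest of each related list were also named, of the aggregating proteoglycans only the detected gene. Of the marker lists, the extremes were named only for heart muscle and cartilage. Further liver, hyaluronan and cartilage values and the single transcripts were chosen after their values were seen. Values were computed with Python 3.11.15, pandas 2.3.3, numpy 2.4.6 and scipy 1.17.1, and drawn with matplotlib 3.10.9. Alternatives covered units, thresholds, pseudocounts, TMM factors (edgeR 4.0.16, R 4.3.3), size factors (DESeq2 1.42.0), spike-in totals and each library alone; rounded expected counts entered those factors. The count of members with intervals apart between libraries and its limit of 1000 reads were added after seeing the data. The library comparison was tested on simulated data. Protein features were not analysed here.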

Additional observations from a re-analysis of the deposited data

How the results depend on the processing

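With near-full-length coding transcripts, an alternative chosen after seeing the data, the members' median was 50.1 TPM and their share of TPM 0.435%; Fbln1 over Fbln2 turned to 0.17 and Hspg2 over Agrn to 0.33 on the log2 scale. As FPKM the median was 39.6, and over nuclear protein-coding genes alone it was 73.6 TPM, with a share of 0.508%. With posterior means the share was 0.397%. With reads per kilobase of 1 model with the longest coding sequence, Bgn over Dcn turned to 0.23 and Vcan over Bgn to -0.25. That model is not always the one with most reads, so these turns may rest on the model chosen. Between libraries, 1 member passed 1.5-fold without the read minimum (Acan) and 1 passed a lower fold threshold. With each library alone, the median ran from 57.3 to 58.3 TPM, the share from 0.4051% to 0.4054%, detected members stayed at 41, pair calls ran from 27 to 28 and exons included at 50% or more from 44 to 45, against 44 with both. The leading transcript was not run with each library alone, since its call compares both. No paired analysis was possible because there is a single group. Depth limits Has2 and Acan most, and intervals cover read allocation and counting within a library only.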

Other observations

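By the quantifier's shares, further members have alternative exons at intermediate inclusion. Exon 8 of Efemp1 (120 bases) was included at 77.2% and 69.6% of TPM, and exon 7 of Mfap5 (24 bases) at 67.6% and 71.0%. Efemp1 had 477 and 367 reads and Mfap5 203 and 188. Each value rests on 1 short skipping model with few reads. Efemp1-203 (1021 bases) had 58.8 and 63.2 reads, and Mfap5-202 (748 bases) had 37.4 and 31.5. Lox, listed with 2 models of the same 411 codons, had 71.3% and 78.1% of its TPM in Lox-202.

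Annotated genes overlap 18 of the 42 members, and 16 of these have an overlapping gene on the opposite strand. Of the 21 overlapping genes on either strand, 6 had 100 reads or more on average. The most abundant was Rtraf, which overlaps Nid2, at 157 and 148 TPM, against 159 and 160.5 TPM for Nid2. Cenpp, at 21.8 and 23.3 TPM, overlaps Ogn at 8.69 and 8.38 TPM. Mapk7, at 28.8 and 27.5 TPM, overlaps Mfap4, and Mus81, at 27.4 and 30.6 TPM, overlaps Efemp2. Whether reads of these pairs were exchanged was not tested.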
